A study of Homo sapiens with 15 samples.

Results

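ATAC-seq peak lists of 2 rescue clones of renal proximal tubule epithelial cells (RPTEC) were compared with those of the wild-type (WT) line. ATAC-seq uses the Tn5 transposase to insert adapters into accessible DNA, and a peak marks a stretch with more insertions than the local background. RPTEC is a human kidney tubule line immortalized with hTERT and kept in G418. The knockout (KO) cells carry CRISPR-induced mutations in exon 3 of SETD2 and are single clones (KO1, KO2). Rescue1 and Rescue2 are single colonies picked from KO cells after lentiviral delivery of FLAG-tagged full-length SETD2 and blasticidin selection, so the rescue cells also carry the SETD2 mutation, the vector and the selection. The labels do not state which KO clone gave rise to either rescue clone. Of the 15 libraries of the series, 9 entered the comparison, 3 each of WT, Rescue1 and Rescue2, and the 6 KO libraries were set beside them. The labels do not say whether the libraries of a clone came from separate cultures, so p-values measure the spread between these libraries and not between independent clones.

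SETD2 places the trimethyl mark on lysine 36 of histone H3 along transcribed gene bodies, and its gene is frequently mutated in clear cell renal carcinoma, a tumor thought to arise from the proximal tubule. Accessible chromatin away from promoters is held open by transcription factors. AP-1 (FOS and JUN family dimers) opens many enhancers in adherent cells, whereas C/EBP and NF-kB factors act at genes of the acute phase and of inflammation. The question asked here was which accessible regions of the rescue clones still differed from WT after SETD2 was expressed again.

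Peaks on chromosomes 1 to 22, X and Y that shared at least 1 bp were merged into 327089 regions. A region was gained if all 6 rescue libraries and no WT library held a peak in it, and lost in the reverse case. By this rule 13371 regions were gained (4.09% of all merged regions) and 6252 were lost (1.91%), while 118852 (36.3%) held a peak in all 9 libraries. Of the 146665 regions with a peak in all 6 rescue libraries, 9.12% were gained, and of the 150053 with a peak in all 3 WT libraries, 4.17% were lost. Just outside the rule, 6364 regions held a peak in all 6 rescue and 1 WT library, and 3551 in all 3 WT and 1 rescue library. Fisher's exact test per region (two-sided) left no region past an adjusted p of 0.05, and the smallest adjusted p was 0.198. The smallest p that these libraries allow is 0.0119. It was reached by 19623 regions, whereas 77879 would be needed at this p for any to pass. Without adjustment, 19885 regions were higher and 9803 lower in rescue at p under 0.05. A region without a peak is one below the calling threshold, and closed chromatin cannot be told apart from a loss of the DNA itself in these lists.

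The sequences of 3 gained and 2 lost regions are shown as examples. They were taken from the calls of highest rank, in general or at promoters, and do not stand for the typical call. Of all gained regions 39.8% contained the AP-1 motif. Each is the 201 bp about the summit in hg38, plus strand, with matches to the searched motifs in capitals. The gained regions lie in an intron of SPOCK3, which encodes a testican proteoglycan, in an intron of ERC1, which encodes a scaffold of vesicle release and NF-kB signaling, and 55314 bp from the nearest start of COL5A1, which encodes a fibrillar collagen chain. All contain the AP-1 motif TGANTCA, written TGACTCA here, and the capitals also mark a FOX motif at ERC1 and overlapping TFAP2 motifs at COL5A1.
SPOCK3 intron, gained, chr4:167100186-167100386: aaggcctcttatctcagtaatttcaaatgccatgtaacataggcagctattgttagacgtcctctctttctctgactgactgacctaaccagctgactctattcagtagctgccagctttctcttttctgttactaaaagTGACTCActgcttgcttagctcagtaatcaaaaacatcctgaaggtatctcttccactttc
ERC1 intron, gained, chr12:1282093-1282293: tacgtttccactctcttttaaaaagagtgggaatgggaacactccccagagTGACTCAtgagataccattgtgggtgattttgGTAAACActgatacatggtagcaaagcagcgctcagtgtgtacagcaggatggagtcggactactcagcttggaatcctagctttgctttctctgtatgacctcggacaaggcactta
COL5A1 upstream, gained, chr9:134586389-134586589: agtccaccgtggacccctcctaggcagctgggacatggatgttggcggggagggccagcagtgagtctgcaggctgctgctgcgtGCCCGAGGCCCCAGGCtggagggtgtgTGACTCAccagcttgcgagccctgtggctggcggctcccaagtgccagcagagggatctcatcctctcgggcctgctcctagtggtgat
The lost regions are one of high rank between genes on chromosome 6 and the promoter of OLR1, which encodes a receptor for oxidized LDL. The former contains an NF-kB motif directly followed by a TEAD motif, both read on the minus strand. The latter contains C/EBP and AP-1 motifs, the AP-1 match being TGATTCA, since the search accepted any base at N.
Chromosome 6 intergenic, lost, chr6:163924164-163924364: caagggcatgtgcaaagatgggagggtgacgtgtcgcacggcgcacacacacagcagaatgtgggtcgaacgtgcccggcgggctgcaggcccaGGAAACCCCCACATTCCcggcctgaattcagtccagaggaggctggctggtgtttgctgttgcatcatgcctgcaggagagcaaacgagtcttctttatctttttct
OLR1 promoter, lost, chr12:10170295-10170495: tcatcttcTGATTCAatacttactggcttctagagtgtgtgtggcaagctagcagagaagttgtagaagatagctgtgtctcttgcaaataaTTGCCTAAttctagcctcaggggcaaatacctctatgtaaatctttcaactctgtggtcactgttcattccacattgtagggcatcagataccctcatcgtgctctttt

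The strength of a peak is given as a level, the read pileup at the summit divided by the genome-wide background solved for the same library. The SPOCK3 region (chr4:167100080-167100580) had levels of 59.6, 59.8 and 51.5 in Rescue1 and 47.4, 45.9 and 50.01 in Rescue2, with no WT peak. All 6 KO libraries also held this peak, at levels from 45.7 to 63.9. The COL5A1 region (chr9:134586209-134586742) had levels of 59.6, 59.8 and 53.2 in Rescue1 and 52.9, 49.6 and 45.7 in Rescue2, and was held by 1 KO1 and 3 KO2 libraries. Among lost regions, the intergenic region of chromosome 6 (chr6:163924053-163924375) had levels of 56.5, 65.1 and 60.8 in WT and no peak in any KO or rescue library. In contrast, the OLR1 promoter (chr12:10170235-10170543), which also lies at a start of TMEM52B, had levels of 29.2, 36.3 and 29.2 in WT, and all 6 KO libraries held a peak there at levels from 8.38 to 18.7. These regions were chosen by their high rank, so their levels describe the top of the calls and not the typical call. The median rank of fold enrichment within a library was 46.9% for gained and 34.7% for lost regions, against 67.4% for other regions in all 6 rescue and 62.9% for other regions in all 3 WT libraries.

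The KO libraries, which the rule did not use, held most of the gained regions. A peak was present in 61.7%, 63.8% and 67.1% of gained regions in KO1 and in 78.2%, 76.7% and 85.6% in KO2. The KO2 libraries were above all KO1 libraries, with a mean of 80.2% ± 4.79 (SD, n = 3) against 64.2% ± 2.71 (SD, n = 3). The exact permutation p was 0.1, the smallest that 3 against 3 libraries allow. Over all merged regions the corresponding means were 60.05% and 54.7%. Every KO library held a peak in 6423 (48.0%) of the gained regions and none did in 1022 (7.64%), against 42.5% and 25.3% of all merged regions. All 3 KO2 and no KO1 library held 952 (7.12%), and all 3 KO1 and no KO2 library held 52 (0.389%). Over all merged regions these 2 patterns made up 2.06% and 0.480%. Lost regions held a peak in 25.7%, 28.5% and 29.2% of cases in KO1 and in 25%, 24.7% and 32.3% in KO2, with no separation of the clones (exact permutation p = 0.8). Of the lost regions, 3051 (48.8%) had no peak in any KO library and 628 (10.0%) had one in all 6, against 25.3% and 42.5% of all merged regions. For comparison, KO libraries held 93.5% ± 2.53 (SD, n = 6) of the other regions present in all 6 rescue libraries and 89.6% ± 2.58 (SD, n = 6) of the other regions present in all 3 WT libraries.

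**Figure D1:**
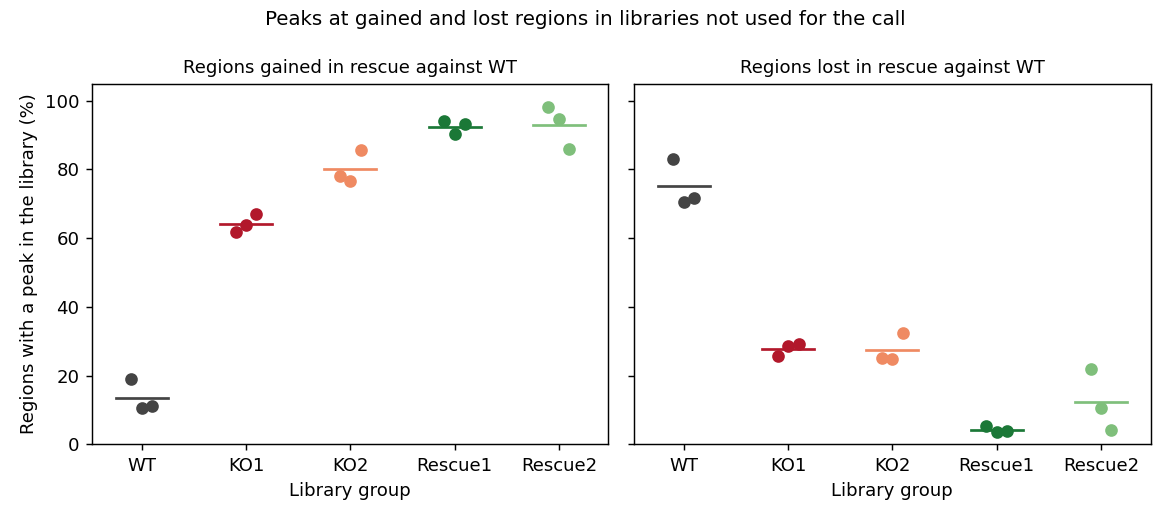
Percent of gained (left) and lost (right) regions with a peak in each library, with a line at each group mean. KO libraries are read on the regions called from all 9 libraries, and each WT and rescue library on regions called without it. KO2 libraries sit between 76.7% and 85.6% of gained regions, above KO1, and both KO clones lie between 24.7% and 32.3% of lost regions.

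The calls were also read in libraries that took no part in them. When 1 WT library was left out of the call, it held 10.6% to 19.1% of the regions then called gained and 70.5% to 83% of those called lost. A rescue library that was left out held 85.9% to 98.1% of gained and 3.49% to 21.9% of lost regions, the highest lost value being that of Rescue2 replicate 1, which also had the most peaks. Regions gained in Rescue1 alone (20467) held a peak in 81.1% ± 7.49 of cases in Rescue2 (SD, n = 3) and 62.3% ± 8.80 in KO libraries (SD, n = 6; exact permutation p = 0.0476, unadjusted). The libraries overlapped, at 73.2% to 88.1% in Rescue2 and 52.8% to 76.3% in KO, where both KO clones were pooled. Regions lost in Rescue1 alone (13083) held a peak in 33.0% ± 10.2 in Rescue2 (SD, n = 3) and 39.8% ± 4.39 in KO (SD, n = 6), which did not differ beyond the spread (exact permutation p = 0.238). Regions gained in Rescue2 alone (23695) held a peak in 71.0% ± 2.12 in Rescue1 (SD, n = 3) and 59.8% ± 9.72 in KO (SD, n = 6; exact permutation p = 0.0952). Regions lost in Rescue2 alone (7806) held a peak in 10.98% ± 1.27 in Rescue1 (SD, n = 3) and 30.9% ± 3.46 in KO (SD, n = 6). Here every Rescue1 library was below every KO library (exact permutation p = 0.0238, the smallest possible).

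The ratio of gained to lost regions moved with lists of equal length and hardly with a stricter peak threshold. The lists held 196969 to 212373 peaks in WT and 208067 to 265193 in rescue libraries, with means of 202669 ± 8446 (SD, n = 3) and 226599 ± 21820 (SD, n = 6; exact permutation p = 0.0714). The length under peaks was 51.7 ± 3.91 Mb in WT (SD, n = 3) and 58.3 ± 5.36 Mb in rescue (SD, n = 6; exact permutation p = 0.0952). The background level, which stands in for depth, ranged from 0.799 to 1.10 reads per base in WT and from 0.820 to 1.17 in rescue. With the 150000 peaks of highest -log10 q kept in each library, 8737 regions were gained and 7497 lost of 213882, so the ratio of gained to lost fell from 2.14 to 1.17. When peaks with a -log10 q of at least 5 were kept instead, 11576 were gained and 5386 lost of 250819, a ratio of 2.15. The cause of this difference between the settings was not tested. The KO occupancy moved little with equal lists, at 71.6% of gained and 27.5% of lost regions. Of 12 listed markers of renal epithelium, 11 had an open promoter in all 9 libraries, with PAX8, PAX2 and KRT18 among them. The exception was LRP2, whose promoter was open in 2 of 3 WT and all 6 rescue libraries. Of 8 leukocyte markers, PTPRC, SPI1, ITGAM and CD79A had no promoter peak in any of the 9 libraries, and of 8 fibroblast markers 7 were open in each WT library and 6 to 7 in rescue libraries.

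Both gained and lost regions lay away from promoters. A promoter, here within 1 kb of a transcript start, overlapped 8.97% of gained and 12.03% of lost regions, against 16.1% of all regions and 23.6% of those with a peak in all 9 libraries. Introns held 52.9% of gained and 51.8% of lost regions, and 32.0% and 31.8% lay between genes. Exons outside promoters held 6.13% of gained and 4.38% of lost regions, against 4.95% of all. The median distance to the nearest start of a coding gene was 26801 bp for gained and 28391.5 bp for lost regions, compared with 14755.5 bp for regions in all 9 libraries. Gained regions that all 6 KO libraries held were farther away, at 35918 bp, than gained regions that no KO library held, at 16551.5 bp. Counted over whole peak lists, exons took 4.58%, 4.56% and 4.57% of peaks in WT and from 4.72% to 4.93% in rescue libraries. The groups did not overlap (difference 0.21 percentage points, exact permutation p = 0.0238, adjusted over the 4 features 0.0952). The promoter share was 21.4% ± 0.375 in WT (SD, n = 3) and 20.6% ± 1.23 in rescue (SD, n = 6) and did not differ beyond the spread (exact permutation p = 0.286).

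By chromosome, the percent of regions gained was highest on chromosome 4 (5.35%), chromosome 16 (4.95%) and the X chromosome (4.77%). The ratio of gained to lost regions ran from 3.33 on chromosome 16 and 3.19 on X down to 1.59 on chromosome 13 and 1 on Y. The share of all peaks on a chromosome did not overlap between WT and rescue libraries for 10 of 24 chromosomes. It was higher in rescue for chromosomes 4, 7, 16 and X and lower for 1, 3, 6, 10, 15 and 18. On chromosome 16 the share was 3.07% ± 0.0159 in WT (SD, n = 3) and 3.25% ± 0.0376 in rescue (SD, n = 6), and on chromosome 6 it was 6.19% ± 0.0181 and 5.99% ± 0.0297. The exact permutation p of each was 0.0238, the smallest possible, and 0.0571 after adjustment over the 24 chromosomes. With equal lists, chromosomes 7 and 16 stayed higher and 3, 6, 10 and 15 lower without overlap, whereas 4, X, 1 and 18 no longer separated and 17 and 22 (higher) and 2, 13 and Y (lower) newly did, 11 in all. Copies of a chromosome and accessibility per copy cannot be told apart from these shares.

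**Figure D2:**
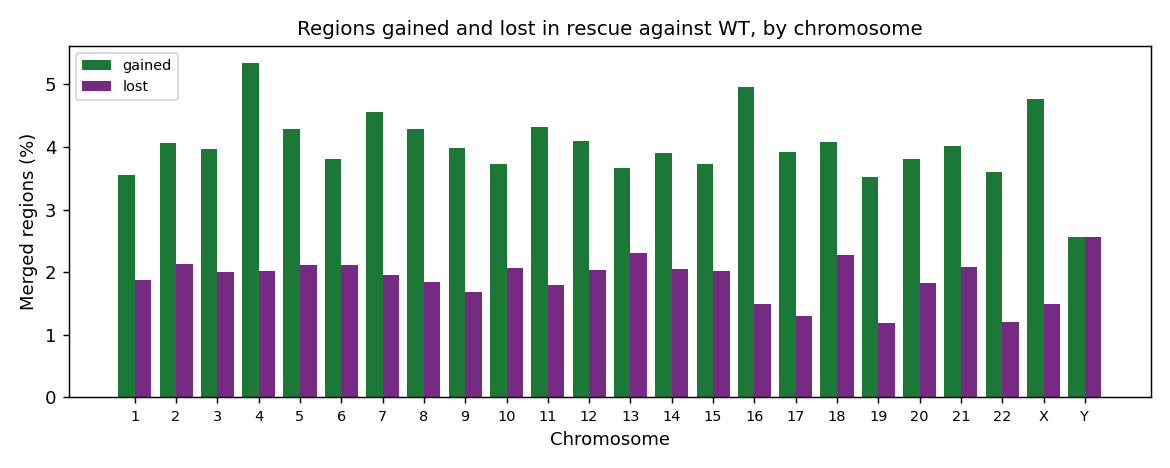
Percent of the merged regions of each chromosome that were gained (green) or lost (purple) in rescue against WT. Chromosomes 4, 16 and X carry the highest gained percentages, and the Y chromosome is the one where both percentages are equal (2.57%).

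Gained and lost regions differed in motif content. The AP-1 motif occurred within 100 bp of the summit in 39.8% of gained regions and 13% of lost regions, against 33.8% of regions in all 9 libraries and 28.0% of all regions. Outside promoters the values were 40.5% for gained, 13.8% for lost and 39.0% for shared regions. The low share in lost regions was present in each of 4 ranges of peak rank. Between the 25th and 50th percentile it was 38.8% of gained, 14.66% of lost and 31.4% of shared regions, and above the 75th percentile 47.7%, 23.9% and 46.7%, with 234 lost regions there. Shared regions outside promoters, weighted to the GC content of the lost regions outside promoters, held AP-1 in 41.2% of cases. With equal lists the AP-1 share was 42.4% of gained and 15.6% of lost regions. The motif is a string match and says nothing of binding, and no test was made because regions are not replicates.

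Other motifs were more frequent in lost regions. The C/EBP motif TTGCNNAA was found in 15.6% of lost and 8.97% of gained regions (9.79% of all), the NF-kB motif (GGG and TTTCC, 2 bases apart) in 4.30% and 1.05% (2.45% of all), the TEAD motif GGAATGT in 8.32% and 4.32% (4.77% of all) and the homeobox motif TAATTA in 5.93% and 3.10% (3.72% of all). The HNF1 motif, for the factor that drives many proximal tubule genes, was present in 19 lost regions (0.304%) and 1 gained region (0.0954% of all). The reverse held for the FOX motif TGTTTAC, in 5.66% of gained and 2.18% of lost regions (3.36% of all), and the RUNX motif TGTGGTT, in 11.1% and 6.59% (7.86% of all). CTCF sites, which anchor chromatin loops, were scarce in both sets, at 1.18% and 1.44% against 3.50% of all regions and 5.64% of regions in all 9 libraries. The CTCF shares were not compared by peak rank. The KO libraries divided the sets further. Lost regions that all 6 KO libraries held contained C/EBP in 27.5%, NF-kB in 6.69% and the POU octamer ATGCAAAT in 3.66% of cases, whereas lost regions that no KO library held contained them in 11.4%, 3.08% and 0.852%. Gained regions that no KO library held contained the E-box CAGGTG, a site of ZEB and SNAI repressors among others, in 25.3% of cases, against 9.67% of gained regions held by all 6 KO libraries and 16.95% of all regions.

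The remaining motifs were searched on both strands in the same way. SOX (CATTGTT) matched 4.99% of gained, 3.61% of lost and 3.51% of all regions. TFAP2 (GCCNNNGGC) matched 5.26%, 7.81% and 7.72%, and SP/KLF (GGGCGGG) matched 1.85%, 3.37% and 4.92%. The interferon-sensitive element, read as 2 copies of GAAA with 2 bases between, matched 2.80%, 4.08% and 3.13%. ETS (CCGGAAG) matched 1.26%, 1.02% and 1.69%, and NFI (TTGGC and GCC, 5 bases apart) matched 1.49%, 1.15% and 1.16%. HNF4 (CAAAGTCCA), steroid receptor (G, any base, ACA, any 3 bases, TGT, any base, C) and GRHL (AACCGGTT) sites each matched under 0.4% of gained, lost and all regions. The HNF1 search used GTTAAT and ATTAA with 1 base between, and the CTCF search CCA, AG and GGC with 2 bases in each gap.

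**Figure D3:**
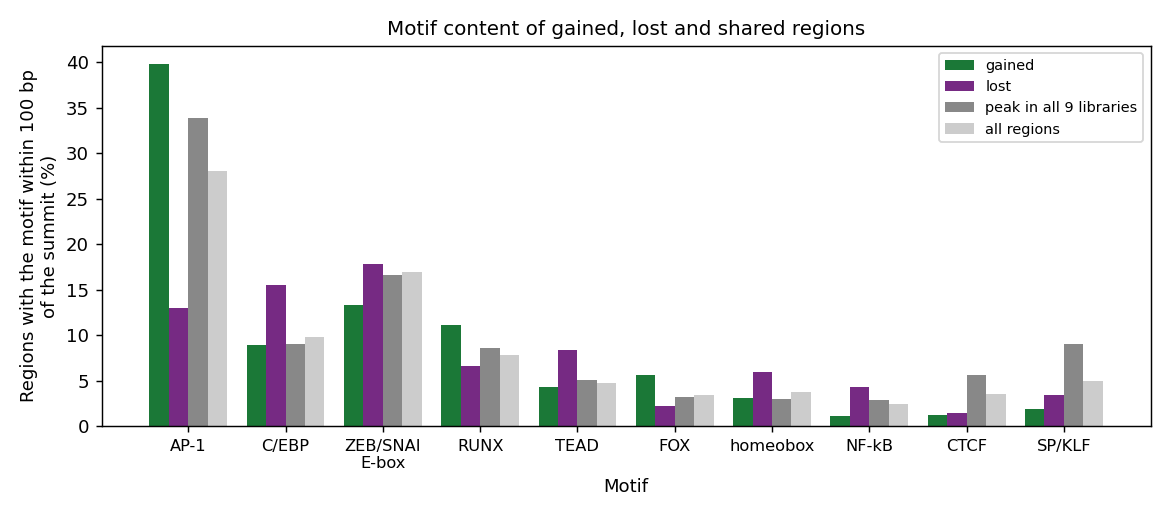
Percent of regions with each motif within 100 bp of the summit, for gained, lost, shared (peak in all 9 libraries) and all merged regions. AP-1 is at 39.8% in gained and 13% in lost regions, while C/EBP, TEAD, homeobox and NF-kB bars are tallest for lost regions.

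Gained and lost regions clustered along particular genes. Of 20033 coding genes with 5 kb on each side, 4889 (24.4%) held at least 1 gained region and 2801 (14.0%) at least 1 lost region. TENM3, which encodes a teneurin adhesion protein of neurons, held the most gained regions, 35 of its 91, and 27 of these were held by all 6 KO libraries. It was followed by MAGI2, a synaptic and podocyte scaffold, with 25 of 127, LRP1B, an endocytic receptor, with 24 of 84, ELMO1, an activator of RAC signaling, with 23 of 85, SLIT3, a guidance ligand, with 22 of 102, COL5A1 with 21 of 36, EYS with 20 of 68 and NCAM1, a neural adhesion molecule, with 18 of 57. Of the COL5A1 regions, 2 were held by all 6 KO libraries. Lost regions were most frequent in CTNNA2, a neuronal catenin, with 27 of 93, of which 3 had no peak in any KO library. MACROD2 had 17 of 179, DPP6, an accessory subunit of potassium channels, 16 of 63, RBFOX1, a splicing factor, 15 of 53, PTH2R, a parathyroid hormone receptor, 14 of 42, PCSK5, a proprotein convertase, 13 of 64, SMOC2, a matricellular protein, 10 of 18 and PTPRM, a receptor phosphatase, 9 of 172. PTPRM also held 10 gained regions and MACROD2 held 5. All 16 lost regions of DPP6 and 14 of 15 in RBFOX1 had no peak in any KO library. Most of these genes are long, and long genes hold more regions.

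Some stretches held no peak of 1 group at all. These stretches were found after the calls were known. From chr9:134554963-135282196, a stretch of 727 kb with COL5A1, FCN2, FCN1 and OLFM1, no WT library held a peak in any of 63 regions. Rescue1 libraries held 40 to 44 of them, Rescue2 libraries 37 to 50, KO2 libraries 36 to 43 and KO1 libraries 6 to 7. All 3 WT libraries held a region at the start of TENM3 (chr4:182143716-182145027), but in the stretch that followed (chr4:182153596-182448144) no WT library held any of 47 regions, against 33 to 35 in Rescue1, 30 to 39 in Rescue2, 27 to 30 in KO1 and 31 to 33 in KO2. In the opposite direction, no rescue library held any of 37 regions over 340 kb at ADGRD1, an adhesion GPCR (chr12:130953884-131293545). WT libraries held 26 to 32 of these, KO1 libraries 0 to 1 and KO2 libraries none. A stretch of 211 kb on chromosome 10 without coding genes (chr10:131547642-131758887) had 18 to 19 of 22 regions in WT and none in any KO or rescue library. At SMOC2 (chr6:168370341-168815460) WT libraries held 15 to 19 of 22 regions, KO1 libraries 2 to 7, KO2 libraries 6 to 7 and rescue libraries none.

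**Figure D4:**
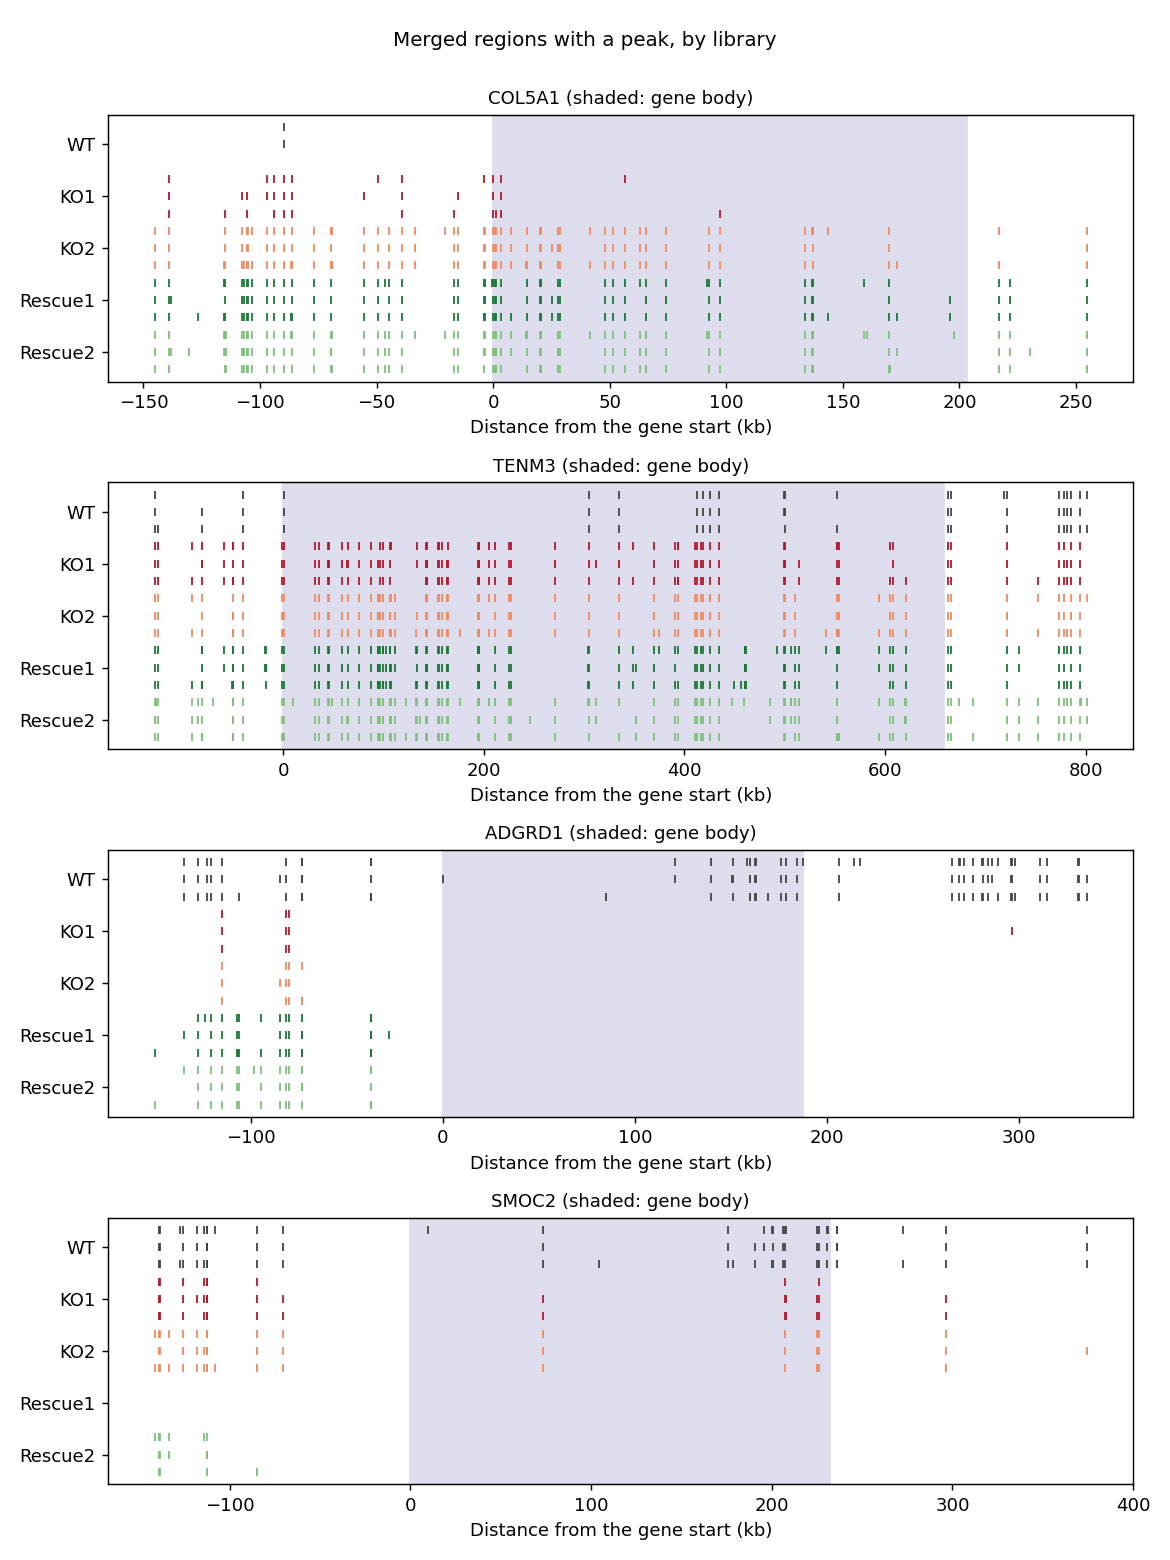
Each tick is a merged region with a peak in that library, placed by its distance in kb from the gene start, with 3 rows per group and the gene body shaded. WT rows are empty across the COL5A1 gene body and, apart from a region at its start, across the first part of TENM3, and rescue rows are empty across the ADGRD1 and SMOC2 gene bodies.

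Promoters of coding genes changed little by the all-or-none rule. Of 20033 genes, 15071 had a promoter peak in all 9 libraries, 92 (0.459%) gained one and 99 (0.494%) lost one. Of the gained promoters 38 were held by all 6 KO libraries and 7 by none, and of the lost promoters 41 were held by no KO library and 12 by all 6. The same KO shares over all coding promoters were not counted here, so these counts stand without a base. Genes that gained a promoter peak included COL5A1 and COL6A3, both collagens, TSHZ3, DLX5 and EYA4, all developmental regulators, which all 6 KO libraries held. PDPN, which encodes podoplanin, and EREG, which encodes an EGF receptor ligand, also gained one, and both were held by all 3 KO2 and no KO1 library. Genes that lost one included COL5A2, KLK1, FGF21 and ZNF135, which no KO library held. Further lost promoters were those of CYP27B1, SLC15A2, SLC34A2 and BBOX1. CYP27B1, which encodes the enzyme that activates vitamin D, was held by 3 KO1 and 1 KO2 libraries, the peptide transporter SLC15A2 by 1 KO1 library, the phosphate transporter SLC34A2 by 2 KO1 libraries and BBOX1, the last enzyme of carnitine synthesis, by all 6 KO libraries. These promoter genes were picked after their values were seen, and of the 30 listed genes of proximal tubule transport and metabolism none gained or lost a promoter peak. The gained promoter regions of highest rank were at GPR141, ARHGAP32, DGKG, FA2H, TAS2R16, FGB, ATG13 and FYN, and all except FA2H and TAS2R16 were held by all 6 KO libraries. The lost ones included those at MAPK10, OLR1, ARID1B, ZNF135, GLB1L2, EPHA3 and FAAH. MAPK10, which encodes the neuronal JNK kinase, had levels of 31.9, 32.5 and 35.3 in WT and was held by all 3 KO1 and no KO2 library, as was ARID1B, a subunit of the BAF remodeling complex, at 44.6, 52.6 and 38.9. GLB1L2 showed the opposite, with a peak in all 3 KO2 and no KO1 library. FYN, a SRC family kinase, had gained levels of 34.1, 32.9 and 39.5 in Rescue1 and 34.7, 30.3 and 39.1 in Rescue2. Of these genes, GPR141, TAS2R16, ZNF135, GLB1L2 and EPHA3 were also among the genes that gained or lost a promoter peak when all starts of a gene were counted, and at the others a region and not the whole set of promoters was called.

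A second measure, the bases under peaks at each coding gene with 5 kb on each side, was compared between rescue and WT by limma on log2(bases + 100). Of 16767 genes with a mean of at least 500 bases, 2581 (15.4%) were higher and 397 (2.37%) lower in rescue at an adjusted p of 0.05. The median log2 difference over all genes was 0.08. When bases were scaled to the total length under peaks of each library, 1875 genes were higher and 3785 lower and the median became -0.08, so that the balance of directions depends on the scaling. With equal lists 1813 were higher and 722 lower. Without WT replicate 2 or WT replicate 3 the counts were 1315 and 1320 higher and 233 and 236 lower, and without WT replicate 1 they were 3291 and 220. Genes named below passed the threshold in every alternative that tested them unless another value is given. Overlapping genes share peaks, so neighbors are not independent.

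SETD2 itself had 4480, 3896 and 3880 bases under peaks in WT, 4597, 4875 and 4840 in Rescue1 and 5875, 6063 and 4593 in Rescue2. The KO libraries, with 4213 to 5375, overlapped both. The log2 difference was 0.32 ± 0.10 (SE; limma adjusted p = 0.0449), and it missed the threshold with equal lists (adjusted p = 0.277), without WT replicate 2 (0.188), WT replicate 3 (0.192), Rescue1 replicate 3 (0.0618), Rescue2 replicate 1 (0.0718) or Rescue2 replicate 2 (0.0709), with Rescue1 alone (0.0938) and with the replicate block (0.0576). Its promoter held a peak in every library, and peak lists do not measure the expression of the delivered SETD2. The vector in the rescue cells carries a SETD2 copy, and whether its reads entered the peaks at SETD2 was not tested.

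The largest rises were at genes with few or no bases under peaks in WT. COL5A1 had no base under a peak in the 3 WT libraries, 8137, 7905 and 9426 in Rescue1 and 9288, 8777 and 8285 in Rescue2 (limma adjusted p = 2.05e-16). KO2 libraries had 7668, 6887 and 7996 and KO1 libraries 590, 514 and 501, so that the rescue clones lay with KO2 and apart from KO1. PDPN had 0, 81 and 89 bases in WT, 3406, 3437 and 3795 in Rescue1 and 3972, 3802 and 3572 in Rescue2 (limma adjusted p = 1.48e-10), with 2017 to 2188 in KO1 and 3301 to 3580 in KO2. CDH11, a cadherin of mesenchymal cells, had 244, 139 and 337 bases in WT and 3553 to 4660 in rescue libraries (log2 difference 3.66 ± 0.15, SE; limma adjusted p = 5.56e-10), with 2804 to 3908 in KO libraries. ADAMTS2, a procollagen protease, had none in WT and 1696 to 2391 in rescue. SNTG1, LRRTM4, RTL4 and MALRD1 also had none in WT, and MCTP2 and CDH10, a cadherin, had at most 323 and 81. LRRTM4 and MALRD1 differed between the clones, with 649 to 978 bases in Rescue1 against 3074 to 3499 in Rescue2 for LRRTM4, and 3450 to 4422 against 650 to 1134 for MALRD1. At all 10 genes every KO library held peaks.

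The largest falls followed more than 1 pattern in KO. SMOC2 had 3406, 2635 and 2966 bases under peaks in WT and none in any rescue library (limma adjusted p = 7.12e-09), with 417 to 927 in KO. ADGRD1 had 2679, 2350 and 2302 in WT and none in any KO or rescue library (limma adjusted p = 2.71e-08). ROBO2, a guidance receptor, had 2247, 1756 and 1781 in WT, none in 5 rescue libraries and 109 in Rescue2 replicate 3 (limma adjusted p = 6.99e-07). Here the KO clones lay on opposite sides of WT, with 10302 to 12273 in KO1 and 257 to 468 in KO2, and the rescue clones lay with KO2. FGFR2, a fibroblast growth factor receptor of epithelia, had 4530, 4263 and 4295 in WT, 617, 619 and 526 in Rescue1 and 1215, 1395 and 1164 in Rescue2 (log2 difference -2.21 ± 0.24, SE; limma adjusted p = 1.67e-05). The KO libraries lay between, at 1539 to 2629. ZNF667, PHACTR3 and LYG1 were at 134 or fewer in all KO libraries, whereas HUNK kept 488 to 1143. GRXCR1 had 914 to 1242 in WT and 863 to 1188 in KO, but none in Rescue1 and 308 to 693 in Rescue2. DACT2 had 956 to 1278 in WT, none in Rescue1 and 483 to 739 in Rescue2, and its limma adjusted p of 0.0447 became 0.125 without WT replicate 2, 0.137 without WT replicate 3 and 0.0602 to 0.0783 without any 1 Rescue1 library. With the replicate number as a block it was 0.0647. The KO libraries had 702 to 1420.

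**Figure D5:**
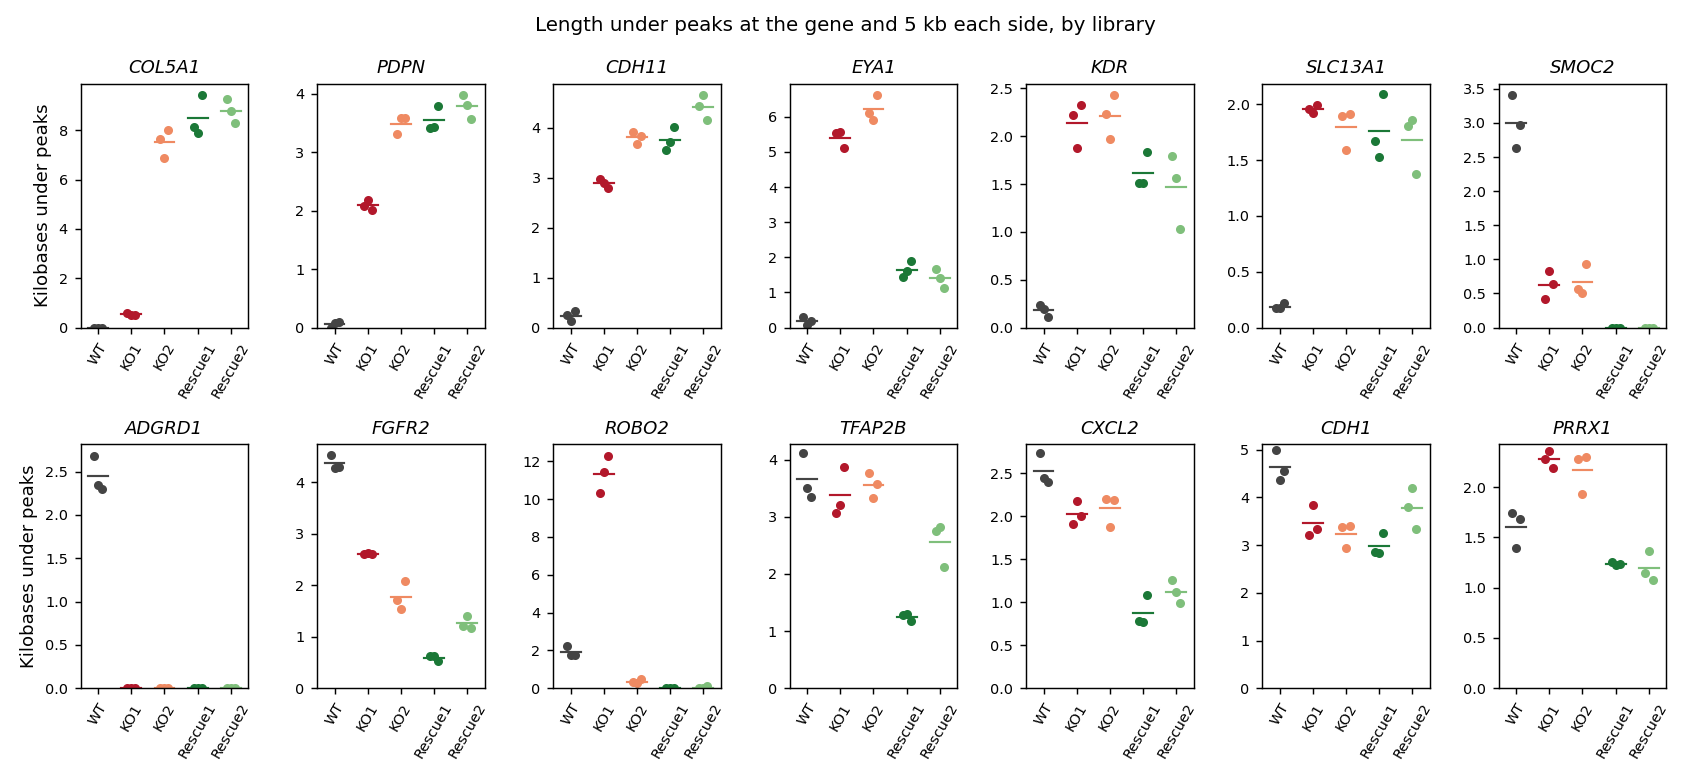
Kilobases under peaks at 14 genes with 5 kb on each side, 1 point per library and a line at each group mean, axes starting at 0. COL5A1 is near 0 in WT, low in KO1 and high in rescue and KO2. PDPN is near 0 in WT and well above it in rescue and both KO clones, with KO1 below KO2. ADGRD1 is at 0 in every KO and rescue library, and PRRX1 is lower in rescue than in WT and KO.

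Of 27 tested genes of the matrix and mesenchyme, 10 (37.0%) were higher and 1 lower, beside 15.4% and 2.37% over all genes, with a median log2 difference of 0.20 against 0.08. COL6A3 had 748, 857 and 814 bases in WT and 1356 to 3095 in rescue (log2 difference 1.13 ± 0.18, SE; limma adjusted p = 0.000631), and the proteoglycan DCN had 267 to 438 and 658 to 1077 (1.13 ± 0.17, limma adjusted p = 0.000358). With scaling to total length 5 members (18.5%) were higher and 5 lower, beside 11.2% and 22.6% over all genes. Of 20 EMT transcription factors 3 (15%) were higher and 1 (5%) lower, near the 15.4% and 2.37% of all genes, or 3 and 6 (30%) under scaling. TWIST2 had 2986 to 3778 bases in WT and 4500 to 5817 in rescue (0.62 ± 0.09, SE; limma adjusted p = 0.000389). PRRX1 had 1746, 1393 and 1683 in WT, 1253, 1223 and 1232 in Rescue1 and 1143, 1363 and 1076 in Rescue2, below all WT libraries, whereas KO libraries had 1932 to 2360, above them all. Its log2 difference was -0.37 ± 0.09 (SE; limma adjusted p = 0.013), which became 0.0522 without WT replicate 1 and 0.0829 without WT replicate 3. ZEB1 had 2885 to 3775 in WT and 3554 to 4452 in rescue (0.33 ± 0.10, SE; limma adjusted p = 0.0401), and the groups overlapped. Its adjusted p was 0.344 with equal lists, 0.202 without WT replicate 2, 0.221 without WT replicate 3, 0.0695 without Rescue1 replicate 3, 0.0591 to 0.0688 without any 1 Rescue2 library, 0.0612 with the replicate block and 0.063 under scaling. SOX2, POU2F2, PDGFRA, CDH2 and VIM did not pass the threshold, with log2 differences from -0.12 (VIM) to 0.20 (PDGFRA), and the sign of POU2F2 and CDH2 turned under scaling.

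Among 36 genes of epithelial junctions, polarity and keratins, 4 (11.1%) were higher and 4 (11.1%) lower, beside 15.4% and 2.37% over all genes. Under scaling 2 (5.56%) were higher and 18 (50%) lower, beside 11.2% and 22.6%. CLDN4, a tight junction claudin, had 3741, 3618 and 3512 bases in WT and 2170 to 2604 in rescue (log2 difference -0.58 ± 0.08, SE; limma adjusted p = 0.000103), close to the 2242 to 2633 of KO libraries. MUC1 (-0.50 ± 0.09, SE; limma adjusted p = 0.00184) and the epithelial factor GRHL2 (-0.51 ± 0.09, SE; limma adjusted p = 0.00116) were also lower, while GRHL1 and CLDN7 were higher. CDH1, which encodes E-cadherin, had 4999, 4354 and 4559 in WT, 2861, 2827 and 3255 in Rescue1 and 3804, 4197 and 3333 in Rescue2 (-0.46 ± 0.12, SE; limma adjusted p = 0.0128). The groups did not overlap, and the KO libraries had 2931 to 3838. The adjusted p of CDH1 was 0.0513 without WT replicate 1, 0.0527 without WT replicate 3, 0.0984 with Rescue2 alone and 0.0737 when only peaks with a -log10 q of at least 5 were kept.

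Of 25 renal epithelial identity factors 2 (8%) were higher and 5 (20%) lower, beside 15.4% and 2.37% over all genes. Under scaling 2 were higher and 13 (52%) lower, beside 11.2% and 22.6%. TFAP2B, a factor of the distal nephron, had 4120, 3506 and 3345 bases in WT, 1278, 1292 and 1176 in Rescue1 and 2755, 2822 and 2114 in Rescue2 (log2 difference -0.99 ± 0.24, SE; limma adjusted p = 0.0109). KO libraries had 3061 to 3874, within or near the WT range, so that the lower value was seen in the rescue clones. TFCP2L1 was lower as well (-0.50 ± 0.10, SE; limma adjusted p = 0.00207). EYA1, a coactivator of nephron progenitors, had 289, 78 and 176 in WT, 1116 to 1884 in rescue and 5117 to 6618 in KO (2.58 ± 0.20, SE; limma adjusted p = 6.65e-07), so that rescue lay between WT and KO. PAX8 did not pass the threshold (0.07 ± 0.07, SE) and turned negative under scaling and with equal lists. Of 26 tested genes of proximal tubule transport and metabolism 4 (15.4%) were higher and 1 (3.85%) lower, near the 15.4% and 2.37% of all genes, and under scaling 2 (7.69%) and 7 (26.9%), near 11.2% and 22.6%. The sulfate transporter SLC13A1 had 173 to 218 bases in WT and 1375 to 2088 in rescue, with 1587 to 1991 in KO (2.65 ± 0.12, SE; limma adjusted p = 3e-09).

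The counts for signaling genes are to be read beside the 15.4% higher and 2.37% lower of all genes, and under scaling beside 11.2% and 22.6%. Of 36 cytokine, chemokine and receptor genes 4 (11.1%) were higher and 6 (16.7%) lower, or 3 (8.33%) and 15 (41.7%) under scaling. CXCL2, a neutrophil chemokine, had 2739, 2452 and 2402 bases in WT, 781, 767 and 1082 in Rescue1 and 1265, 1115 and 993 in Rescue2 (log2 difference -1.27 ± 0.13, SE; limma adjusted p = 1.19e-05). KO libraries had 1875 to 2208, between WT and rescue. CXCL8 had 1782 to 2130 in WT and 905 to 1446 in rescue (limma adjusted p = 0.00108), and its KO range of 1410 to 2141 overlapped both. Of 49 WNT genes 11 (22.4%) were higher and 2 (4.08%) lower, or 10 (20.4%) and 11 (22.4%) under scaling. The WNT antagonist DKK2 had 1423, 1688 and 1594 in WT and 3325 to 4345 in rescue (1.27 ± 0.10, SE; limma adjusted p = 7.2e-07), and NKD1 and WNT2 were also higher, while the ubiquitin ligase RNF43 was lower. Of 36 interferon response genes 8 (22.2%) were higher and 1 (2.78%) lower, or 7 (19.4%) and 12 (33.3%) under scaling, with the higher ones including IFI27 (0.86 ± 0.11, SE; limma adjusted p = 0.000118) and MX2 (0.68 ± 0.09, SE; limma adjusted p = 7.92e-05). Of 31 TGF-beta pathway genes 3 (9.68%) were higher, BMP7, SMAD9 and LTBP1, and 1 (3.23%) was lower, or 3 and 10 (32.3%) under scaling. Of 26 AP-1 and TEAD factors and targets 3 (11.5%) were higher and 3 (11.5%) lower, or 1 (3.85%) and 10 (38.5%) under scaling, with VGLL3, a TEAD cofactor, higher (1.33 ± 0.11, SE; limma adjusted p = 1.48e-06) and CCN1, a YAP target, lower (-0.78 ± 0.10, SE; limma adjusted p = 8e-05). SMAD9 missed the threshold with equal lists (adjusted p = 0.0679).

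Of 20 genes that write, read or erase H3K36 methylation 5 (25%) were higher, SETD2 among them, and none lower, beside 15.4% and 2.37% over all genes. With equal lists 2 (10%) were higher and none lower, beside 11.1% and 4.42%. By regions 9 of 20 held a gained region and none a lost one, against 24.4% and 14.0% of all coding genes. Of their 436 regions 17 were gained, near the 4.09% of all merged regions, and none was lost, against 1.91%. KDM4B, an H3K36 and H3K9 demethylase, had 5047, 3907 and 4141 bases in WT and 6251 to 7400 in rescue (log2 difference 0.65 ± 0.09, SE; limma adjusted p = 0.000206), with 4654 to 6016 in KO. With scaling to total length 2 of the 20 (10%) were higher and 3 (15%) lower, beside 11.2% and 22.6% over all genes. In the HOX clusters no HOXA or HOXC gene passed the threshold, 1 of 8 HOXB genes was higher and 2 of 9 HOXD genes were lower, among them HOXD8 (-0.46 ± 0.10, SE; limma adjusted p = 0.00386). Under scaling 3 HOXA, 2 HOXB, 1 HOXC and 5 HOXD genes were lower and none was higher. Of the marker lists, 4 of 8 fibroblast, 3 of 7 endothelial, 1 of 12 renal epithelial and 0 of 6 leukocyte genes were higher and none was lower, beside 15.4% and 2.37% over all genes. Under scaling 1, 2, 0 and 0 were higher and 0, 1, 4 and 3 lower, beside 11.2% and 22.6%. KDR, the receptor for VEGF, was the endothelial gene with the largest difference, at 109 to 240 bases in WT, 1031 to 1830 in rescue and 1880 to 2433 in KO (2.56 ± 0.17, SE; limma adjusted p = 1.68e-07). Of the 8 endothelial markers, 5 to 6 had an open promoter in WT and 5 to 7 in rescue libraries, and the part of other cell types in these results was not tested.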

How the data were processed

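Chromatin accessibility was measured by ATAC-seq in WT, KO and rescue RPTEC cells. Per the labels, reads were aligned to hg38 with BWA 0.7.17, and MACS2 2.2.7.1 gave 1 list of peaks per library. DiffBind 2.14.0 is also named. The deposited lists give an integer score, a fold enrichment (a ratio), -log10 p-value and -log10 q-value per peak as the authors' caller wrote them. Read counts were not used here, and the control, duplicate handling and exclusion regions are not given in the sources used here. The lowest -log10 q in a list was 1.30 to 1.31, so lists with more reads can hold more and weaker peaks. The labels and the study's methods differ in the BWA version and in cell number, and the design text speaks of duplicates where 3 libraries per group exist.

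From these lists, peaks of the 9 libraries sharing 1 bp were merged, and regions were called by occupancy. Summit pileup and background were solved from fold enrichment and -log10 p. Genes came from GENCODE v44. Bases under peaks per gene (5 kb flanks, mean of at least 500 bases, pseudocount 100) were fitted by limma 3.58.1 in R 4.3.3 with a mean trend and Benjamini-Hochberg adjustment. Library measures were compared by two-sided exact permutation over the 84 splits. Motifs were matched as strings on both strands within 100 bp of the summit. Python 3.11.15, numpy 2.4.6, pandas 2.3.3 and scipy 1.17.1 were used.

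The members and gene lists were chosen with earlier results of these data known. Named genes were the 10 largest rises and falls, genes with the most gained or lost regions, up to 4 list members past the threshold in each direction and 11 genes of interest such as SETD2, CDH1 and PRRX1. Named regions were those of highest mean rank and of highest rank at promoters. A few items that these rules chose are not reported here. On simulated data, the occupancy rule recovered 77.5% of gained and 84% of lost regions at 95% detection per library. In a separate simulation limma recovered 98.5% of 200 changed genes with 2.96% false calls. That simulation took its spread within each clone and held no difference between the clones or in list length. Its rate of false calls therefore cannot be carried over to these data.

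Alternatives were equal lists of 150000 peaks, a -log10 q of at least 5, merging within 100 bp, a rule on covered length, a majority rule, each clone alone, each library left out, the replicate number as a block, a fit of 3 groups, scaling to total length, another pseudocount and no filter. Replicate numbers come from the labels, and libraries with the same number did not deviate together (correlations -0.0529 to 0.0306). The motif shares by rank, by GC content and under other lists, and the stretches without peaks, were chosen after seeing the data.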

Additional observations from a re-analysis of the deposited data

Results flagged for a closer look

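Among the 6 rescue libraries, 8 values stood farther from the other 5 than Dixon's 95% limit allows, of 139 sets of values examined. Chance alone flags some sets at this limit, so these are values to look at and not findings. Rescue1 replicate 3 had 4.93% of peaks in exons, against 4.72% to 4.78% in the others, and its background level of 1.17 was the highest of the 6. Rescue2 replicate 1, which had the most peaks, had 3.18% of peaks on chromosome 16 against 3.25% to 3.29% in the others, and 2.76% on the X chromosome against 2.68% to 2.70%. Rescue2 replicate 3 had 109 bases under peaks at ROBO2 where the others had 0, 1273 at RNF43 against 1934 to 2141, 403 at CXCR4, a chemokine receptor, against 783 to 992, and 5652 at PCSK5 against 7453 to 8216. Rescue2 replicate 1 had 127 bases at ZNF667 where the others had 0. No gene of 109 examined moved in opposite directions from WT in all libraries of the 2 clones.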

How the results depend on the processing

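Gained and lost regions numbered 8737 and 7497 with equal lists and 11576 and 5386 with a -log10 q of at least 5. They numbered 39711 and 25677 by majority, 20467 and 13083 with Rescue1 alone, and 23695 and 7806 with Rescue2 alone. Leaving out 1 library gave 13690 to 16519 gained and 6478 to 9021 lost. The exon share differed by 0.242 percentage points with Rescue1 alone and 0.184 with Rescue2 alone, neither able to pass, and by 0.183 to 0.226 with 1 library left out. The promoter difference turned to 0.0248 with Rescue1 alone, and the intergenic difference to -0.228 with equal lists and -0.399 with Rescue1 alone. With Rescue1 alone 18 chromosomes did not overlap. Genes lower in rescue numbered 722 with equal lists, 870 with Rescue1 alone and 3785 under scaling, and genes higher 1315 to 3291 and lower 220 to 510 with 1 library left out.

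With the replicate number as a block 2269 genes were higher and 348 lower. Signs turned at genes short of the threshold. With equal lists CDH2 was at -0.0626, PAX8 at -0.0124 and POU2F2 at -0.00862. Under scaling PTPRM was at -0.0995, POU2F2 at -0.150, CDH2 at -0.114 and PAX8 at -0.0950. With Rescue1 alone POU2F2 was at -0.0171 and with Rescue2 alone SOX2 at 0.0302. With 1 library left out SOX2 ran from -0.0877 to 0.0785 and POU2F2 from -0.0310 to 0.0794. The cause of these changes was not tested. Depth limits the calls, since a peak near the threshold can be missed in 1 library and the lists carry no read totals.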
